A study of Homo sapiens with 8 samples.

Results

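The genes of the NF-kB pathway were followed on 8 Affymetrix arrays of AGS, a human stomach cancer line (gastric adenocarcinoma). AGS cells treated with 3.4 nM podofilox for 72 hours made up 4 arrays, and control AGS cells the other 4. Podofilox, or podophyllotoxin, is a plant lignan that binds tubulin and keeps microtubules from assembling. The labels give no time in culture for control cells and do not say whether those cells received solvent. A difference in either could not be told apart from the drug. Nor do the labels say whether replicates came from separate cultures, so a p-value here reflects array-to-array spread that could be technical. The rule lists 38 genes of the pathway and its known targets by symbol. It uses no measured value, but the list was drawn up with earlier results of these data known, so its shares are not independent of them. Each gene was read from its brightest probe set that the platform annotation gives to a single gene. That left 35 members of the 18132 genes measured: 24 pathway members and 11 targets. TRAF2, BIRC3 and SOD2 were not analysed here.

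NF-kB is a family of dimeric transcription factors that IkB proteins hold inactive in the cytoplasm. In the canonical branch, receptors such as the TNF receptor recruit TRAF adaptors and ubiquitin ligases, the IkB kinase complex marks IkB for destruction, and RELA dimers enter the nucleus. In the non-canonical branch, TRAF3 and the ubiquitin ligases of the cIAP kind keep the kinase NIK (MAP3K14) low, and its release leads to NFKB2 and RELB dimers. Many targets of NF-kB are its own brakes, among them IkB proteins and the ubiquitin-editing enzyme A20 (TNFAIP3), while others are cytokines, adhesion molecules and survival genes of epithelial and immune cells.

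Of the 35 members, 11 were higher and 3 lower in podofilox cells than in control cells, and 21 did not pass the test (limma, two-sided Benjamini-Hochberg adjusted p under 0.05 over all genes). This is 40.0% of the members, where 21.0% of all genes passed, 8.55% upward and 12.5% downward. TNFAIP3 had the largest rise (1.53-fold), followed by the caspase-8 regulator CFLAR (1.48-fold), the subunit RELA (1.31-fold) and the cytokine IL32 (1.29-fold). The deepest fall was that of the adaptor TRAF3 (1.34-fold lower), which was seen on its brightest probe set alone. The median difference over the 35 members was 0.12 on the log2 scale, against 0.0069 over all genes, and 27 members had a positive difference. All values below are log2 values of the deposited table, and each difference is podofilox minus control. Arrays of whole cultures cannot tell fewer cells that express a gene from less of its RNA in each cell.

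**Figure D1:**
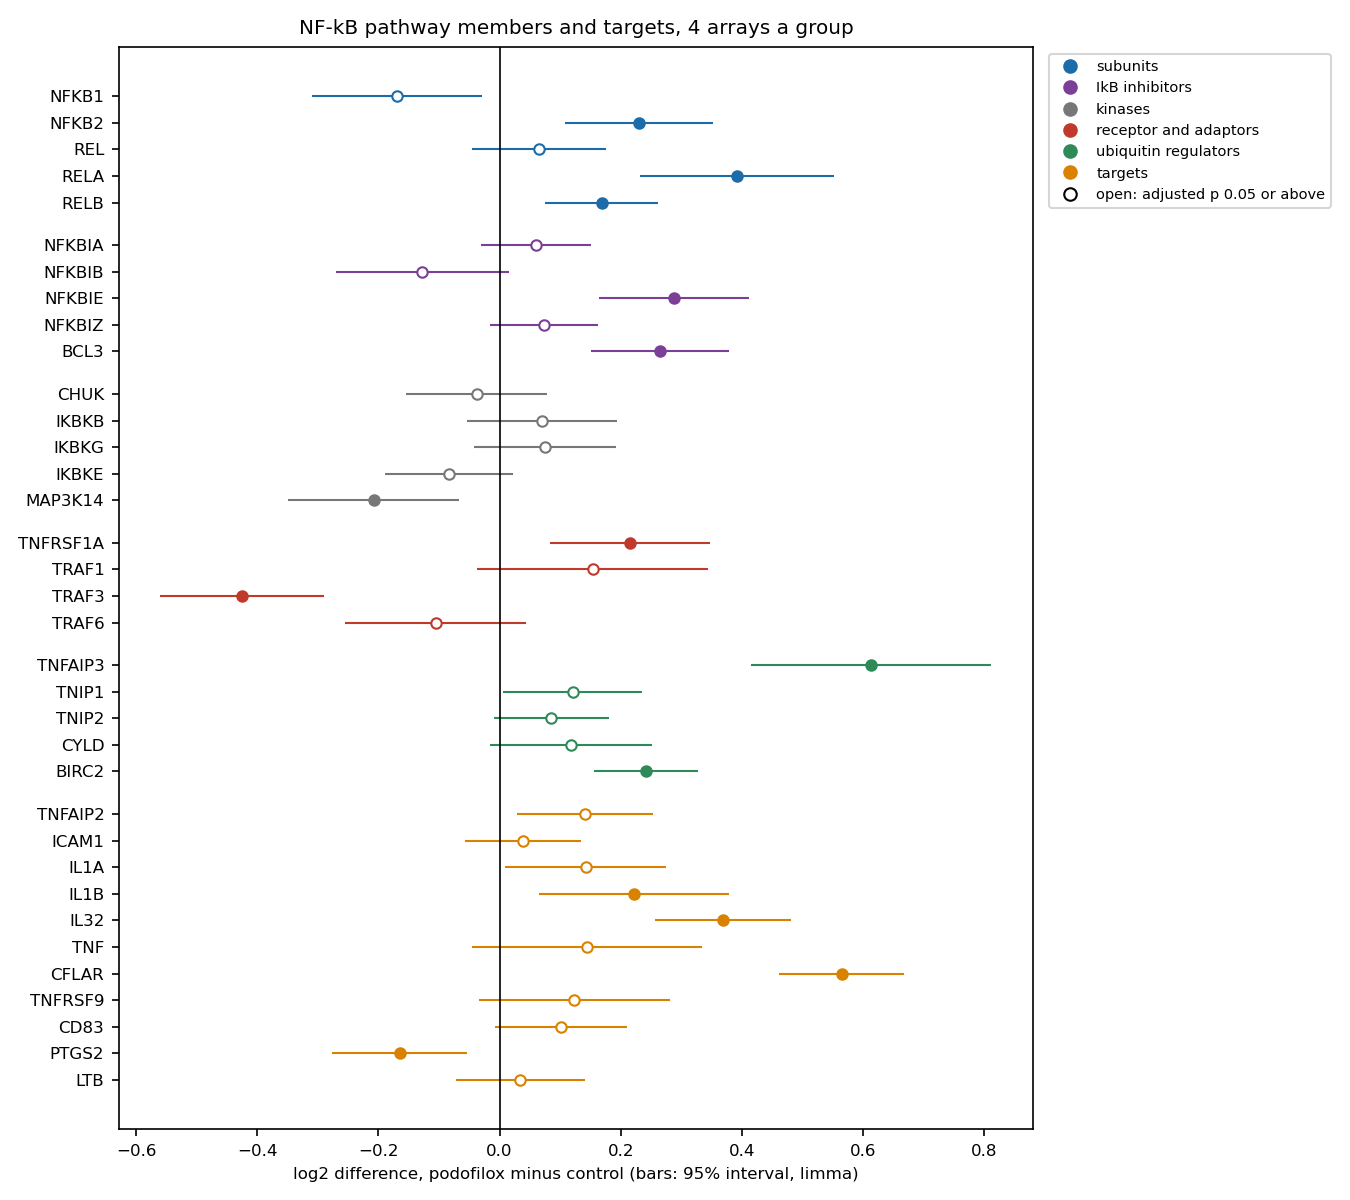
Log2 difference between podofilox and control (horizontal axis) of each of the 35 members, ordered by role, with limma's 95% interval as a bar; filled points passed the test and open points did not. TNFAIP3 at 0.61 and CFLAR at 0.56 lie farthest to the right, and TRAF3 at -0.43 farthest to the left.

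Read apart, 8 of 24 pathway members rose (33.3%) and 2 fell (8.33%), with a median difference of 0.08. Of 11 targets, 3 rose (27.3%) and 1 fell (9.09%), with a median of 0.14. Of all genes, 8.55% rose and 12.5% fell. The falls were too few, 2 and 1, for their shares to be told apart from that of all genes. Podofilox and control arrays did not overlap in 9 pathway members and 4 targets, where 26.2% of all genes did so. A list of pathway members whose transcription NF-kB is itself known to drive had 11 measured genes. Of these, 5 rose (NFKB2, RELB, NFKBIE, BCL3 and TNFAIP3, 45.5%) and 0 fell. NFKB1, another of the 11, passed as a fall under some alternatives. Of the other 13, 3 rose (RELA, TNFRSF1A and BIRC2, 23.1%) and 2 fell (MAP3K14 and TRAF3, 15.4%). The split rests on that list, which may not be complete.

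NF-kB dimers bind DNA at kappa-B sites. The 250 bases before the first transcript start that RefSeq lists for a gene (build GRCh38.p14) were searched on both strands for the kappa-B consensus and for the shorter motif GGANNTTCC, where N is any base. The shorter motif can overlap the consensus and can match both strands at the same place. The promoters of 4 members past the test are shown because they hold a match beside the largest differences; the capitals mark the matched bases, each sequence runs 5′ to 3′ along the gene, and all 4 genes lie on the + strand.
TNFAIP3, chr6:137867009-137867258: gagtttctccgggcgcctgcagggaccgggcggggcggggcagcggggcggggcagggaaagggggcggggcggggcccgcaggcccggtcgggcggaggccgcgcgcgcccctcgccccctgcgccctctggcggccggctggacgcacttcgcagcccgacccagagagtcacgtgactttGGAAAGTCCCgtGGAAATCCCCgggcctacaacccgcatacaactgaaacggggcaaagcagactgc
CFLAR, chr2:201118466-201118715: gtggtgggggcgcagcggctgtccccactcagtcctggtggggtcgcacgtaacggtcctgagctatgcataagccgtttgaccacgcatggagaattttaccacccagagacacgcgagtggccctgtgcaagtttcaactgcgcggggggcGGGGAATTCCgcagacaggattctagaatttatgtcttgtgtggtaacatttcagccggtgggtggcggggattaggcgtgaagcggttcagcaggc
TRAF3, chr14:102777199-102777448: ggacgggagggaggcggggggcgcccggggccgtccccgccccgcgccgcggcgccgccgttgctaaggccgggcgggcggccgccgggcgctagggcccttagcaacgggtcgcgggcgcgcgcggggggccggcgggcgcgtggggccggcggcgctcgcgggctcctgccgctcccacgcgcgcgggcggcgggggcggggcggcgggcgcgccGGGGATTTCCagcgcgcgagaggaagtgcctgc
IL32, chr16:3065153-3065402: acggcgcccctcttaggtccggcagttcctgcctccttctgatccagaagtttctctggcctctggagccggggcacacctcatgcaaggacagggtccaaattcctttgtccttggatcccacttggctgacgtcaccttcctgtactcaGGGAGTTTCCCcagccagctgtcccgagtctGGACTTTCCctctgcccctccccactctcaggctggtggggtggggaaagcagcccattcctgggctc

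The TNFAIP3 promoter held a pair of consensus matches on the other strand, at 67 to 58 and at 55 to 46 bases before the start. CFLAR held 1 consensus match, at 97 to 88 bases, and TRAF3, which fell, held 1 at 33 to 24 bases. IL32 held overlapping consensus matches on both strands, from 99 to 89 bases, and a separate match to the shorter motif at 68 to 60 bases, GGACTTTCC. A match to either motif was present in 11 of the 32 members matched in the table (34.4%), which leaves out RELB, NFKBIE and IKBKB. The share was 13% among the promoters of the genes tested here and 11.5% among those of all genes in the table. The members were listed as genes of the pathway and its known targets, so their share is not that of an unselected list. By outcome, 3 of 9 members that rose held one (33.3%), 1 of 3 that fell, and 7 of 20 that did not pass the test (35.0%). The matches of members that did not pass included GGGAATTTCC in NFKB1 and NFKBIZ, GGGAAATTCC in REL, and GGGACTTTCC in LTB. A match describes the letters of the window and not a bound site.

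**Figure D2:**
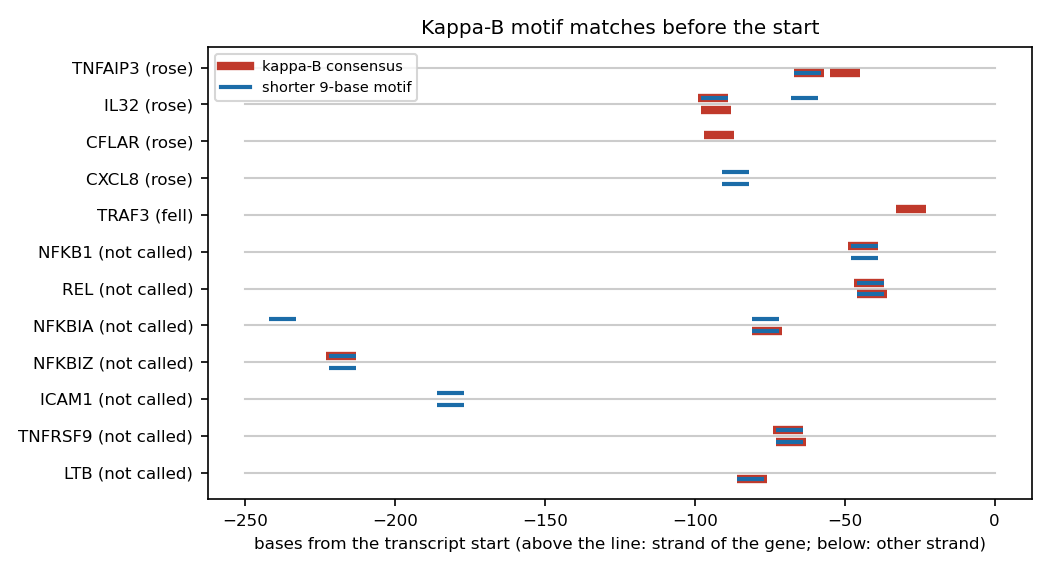
Position of kappa-B consensus matches (thick red) and matches to the shorter motif (thin blue) in the 250 bases before the start, for the 11 members with a match and for CXCL8. The matches of members that rose, of TRAF3 that fell and of members that did not pass the test mostly lie within 100 bases of the start; those of NFKBIZ and ICAM1 and 1 of NFKBIA lie farther away.

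Among the 5 DNA-binding subunits, RELA, NFKB2 and RELB rose, while REL and NFKB1 did not pass the test. RELA, the transactivating subunit of the canonical dimer, read 8.44, 8.63, 8.61 and 8.49 on podofilox arrays 1 to 4, against 8.24, 8.22, 7.95 and 8.20 on control arrays 1 to 4. The podofilox arrays all lay above the control arrays, of which array 3 was the lowest. The difference was 0.39 (SE 0.07, adjusted p = 0.00385), and the other RELA probe sets rose by 0.42 each. NFKB2, the p100 precursor of the non-canonical subunit p52, had 7.73, 7.71, 7.68 and 7.66 with podofilox and 7.35, 7.44, 7.59 and 7.47 in control cells, again without overlap, and rose by 0.23 (SE 0.05, adjusted p = 0.0141). RELB, the partner of p52, had 8.44, 8.38, 8.34 and 8.40 with podofilox and 8.28, 8.21, 8.22 and 8.19 in control cells. The groups did not overlap, and RELB rose by 0.17 (SE 0.04, adjusted p = 0.0175), a call that ended without control replicate 4 with a difference of 0.16 (adjusted p = 0.0625).

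NFKB1, the precursor of the canonical subunit p50, had 8.61, 8.55, 8.35 and 8.40 with podofilox and 8.55, 8.67, 8.68 and 8.68 in control cells. Its values overlapped through podofilox array 1 and control array 1, and its difference of -0.17 (SE 0.06, adjusted p = 0.0875) did not pass the test, although without podofilox replicate 1 it did, at -0.21 (adjusted p = 0.037). Arrays numbered 1 and 2 gave -0.04, and arrays 3 and 4 gave -0.30. REL, a subunit best known from lymphocytes, differed by 0.07 (SE 0.05, adjusted p = 0.4), with overlapping values between 7.53 and 7.65 on podofilox arrays and between 7.45 and 7.62 on control arrays.

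**Figure D3:**
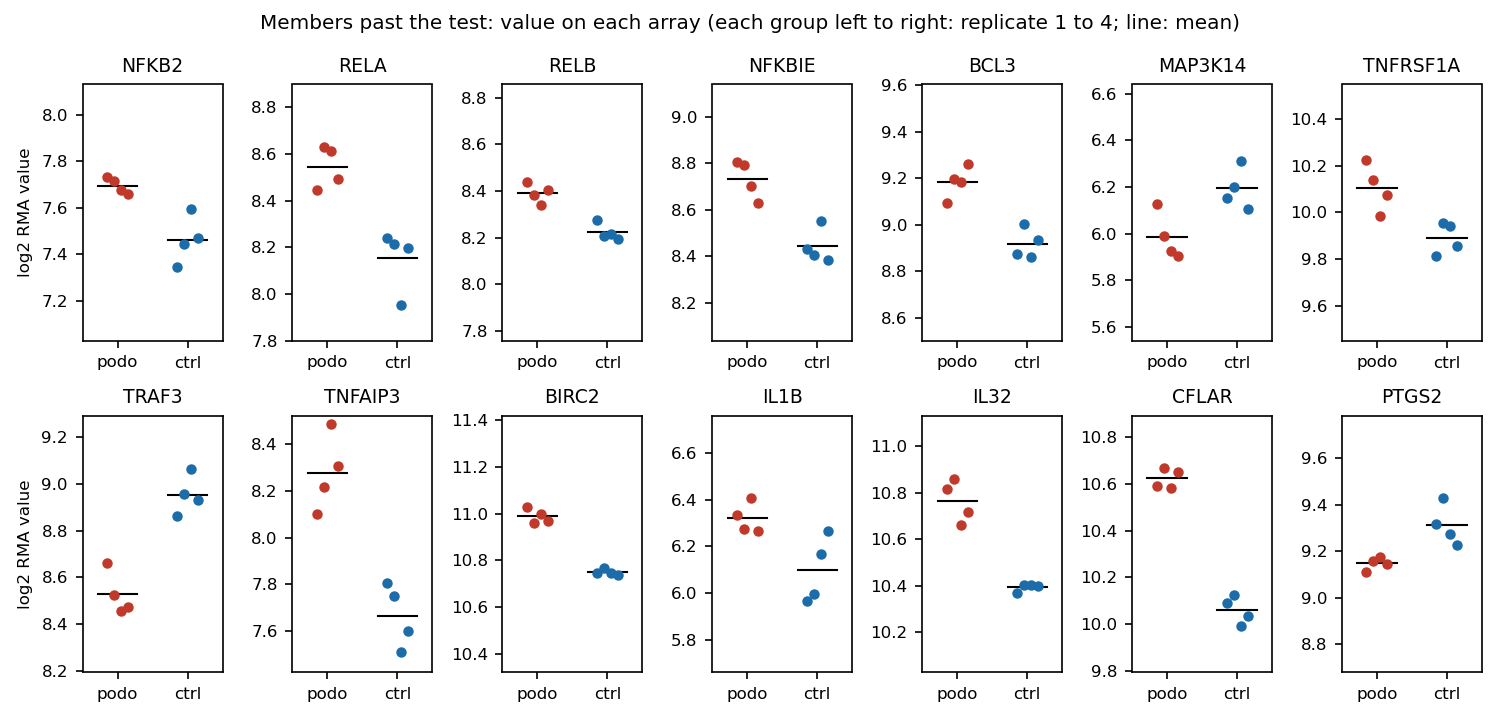
Log2 value on each array for the 14 members past the test, podofilox at the left and control at the right of each panel, with the group mean as a line; every panel spans the same range of log2 units. MAP3K14 is the panel in which the groups overlap; in the other 13 they do not, IL1B by the narrowest margin.

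Of the 5 genes of the IkB family, NFKBIE and BCL3 rose, and NFKBIA, NFKBIB and NFKBIZ did not pass the test. NFKBIE, which encodes IkB-epsilon and holds RELA and REL dimers in the cytoplasm, had 8.80, 8.79, 8.70 and 8.63 with podofilox and 8.43, 8.41, 8.55 and 8.39 in control cells. All podofilox arrays were above all control arrays, and the rise was 0.29 (SE 0.06, adjusted p = 0.00496). BCL3, a nuclear IkB protein that joins p50 and p52 dimers on DNA, had 9.10, 9.20, 9.19 and 9.26 with podofilox and 8.88, 9.01, 8.86 and 8.94 in control cells. It rose by 0.26 (SE 0.05, adjusted p = 0.00506) without overlap, and of its other 3 probe sets 1 rose (0.16) and a dim one lay at -0.08.

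NFKBIA, which encodes IkB-alpha, the best-known feedback inhibitor of the canonical branch, had 10.32, 10.36, 10.36 and 10.30 with podofilox and 10.22, 10.30, 10.29 and 10.29 in control cells. Podofilox array 4 and control array 2 were at the same level, and the difference was 0.06 (SE 0.04, adjusted p = 0.346), with a 95% interval from -0.03 to 0.15. Its other probe sets lay at -0.02 and 0.0085. NFKBIZ, which encodes a nuclear IkB protein that is induced by interleukin-1, differed by 0.07 (SE 0.04, adjusted p = 0.232), and NFKBIB, which encodes IkB-beta, by -0.13 (SE 0.06, adjusted p = 0.198). NFKBIB was spread over 6.88 to 7.18 on podofilox arrays and over 7.15 to 7.20 on control arrays, with a difference of -0.0025 in the first pair of arrays and -0.25 in arrays 3 and 4.

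Of the 5 roles among pathway members, the kinases had the smallest median size of difference (0.07). The 3 parts of the IkB kinase complex did not pass the test: CHUK (IKK-alpha) differed by -0.04, IKBKB (IKK-beta) by 0.07 and the scaffold IKBKG (NEMO) by 0.07. Their 95% intervals ran from -0.15 to 0.08, from -0.05 to 0.19 and from -0.04 to 0.19. All 11 IKBKB probe sets lay between -0.08 and 0.10, and all 8 IKBKG probe sets between -0.11 and 0.14, with none past the test in a fit over 49293 probe sets, in which 17.7% passed. IKBKG has a near-identical pseudogene, so its probe sets may read both. IKBKE, an IKK-related kinase of innate immunity, differed by -0.08 (SE 0.05, adjusted p = 0.258) on its brightest probe set, while its dimmer one fell (-0.23, adjusted p = 0.0356 over all probe sets).

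MAP3K14, the NIK kinase of the non-canonical branch, was the kinase that fell. It had 6.13, 5.99, 5.92 and 5.90 with podofilox and 6.15, 6.20, 6.31 and 6.11 in control cells, so podofilox array 1 lay above the lowest control array. The difference was -0.21 (SE 0.06, adjusted p = 0.0414). It kept its call without podofilox replicate 1 and without control replicate 4, lost it without each of the other 6 arrays (adjusted p up to 0.109), and lost it with the mean of its probe sets. Its other probe set lay at -0.07.

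Of the receptor and its adaptors, TNFRSF1A rose and TRAF3 fell, while TRAF1 and TRAF6 did not pass the test. TNFRSF1A, the main receptor for TNF on epithelial cells, had 10.23, 10.14, 9.98 and 10.08 with podofilox and 9.81, 9.95, 9.94 and 9.86 in control cells. The groups did not overlap and the rise was 0.21 (SE 0.06, adjusted p = 0.0276), but the call did not survive the omission of podofilox replicate 1, 2 or 4 or of control replicate 1 or 4 (adjusted p up to 0.0788). Its 3 probe sets of the _s_at kind, whose probes may be shared by several transcripts, rose by 0.21 to 0.27, while the fourth, of the plain kind, lay at 0.06 and did not pass.

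TRAF3, the adaptor that keeps NIK low, had 8.66, 8.52, 8.46 and 8.47 with podofilox and 8.86, 8.96, 9.07 and 8.93 in control cells. Every podofilox array was below every control array on this probe set, and the difference was -0.43 (SE 0.06, adjusted p = 0.000942). The other TRAF3 probe sets lay at -0.02 and 0.17 and did not pass the test, so the mean over its probe sets was not called (adjusted p = 0.204). TRAF1, an adaptor that NF-kB itself induces, differed by 0.15 (SE 0.09, adjusted p = 0.244), with control array 1 (5.28) inside the podofilox range. TRAF6, the adaptor of the interleukin-1 and Toll-like receptors, differed by -0.11 (SE 0.07, adjusted p = 0.311), and podofilox array 3 (7.10) was its lowest value.

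All 5 measured ubiquitin regulators had positive differences, and TNFAIP3 and BIRC2 rose. TNFAIP3, or A20, edits the ubiquitin chains on signalling adaptors and so ends the signal. It had 8.10, 8.22, 8.49 and 8.31 on podofilox arrays 1 to 4 and 7.80, 7.75, 7.51 and 7.60 on control arrays 1 to 4. The lowest podofilox array lay above the highest control array, and the rise was 0.61 (SE 0.09, adjusted p = 0.00108). Arrays 1 and 2 gave 0.38 and arrays 3 and 4 gave 0.84, the widest such gap among the members. Its other probe set rose by 0.37, so the size of the rise differed between probe sets while the direction did not.

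BIRC2, which encodes the ubiquitin ligase cIAP1, had 11.03, 10.96, 11.00 and 10.97 with podofilox and 10.75, 10.77, 10.74 and 10.74 in control cells. Its replicates were close together and its groups far apart relative to that spread, with a rise of 0.24 (SE 0.04, adjusted p = 0.00179). All 5 BIRC2 probe sets rose, by 0.16 to 0.32. CYLD, a deubiquitinase that opposes the pathway, differed by 0.12 (SE 0.06, adjusted p = 0.205) on its brightest probe set, with 0.25 in arrays 1 and 2 and -0.02 in arrays 3 and 4. Of its other 3 probe sets 1 rose (0.28). TNIP1 and TNIP2, which bind A20, differed by 0.12 and 0.09 without passing the test, although all 8 TNIP1 probe sets were positive and 2 of them rose (0.17 and 0.19).

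**Figure D4:**
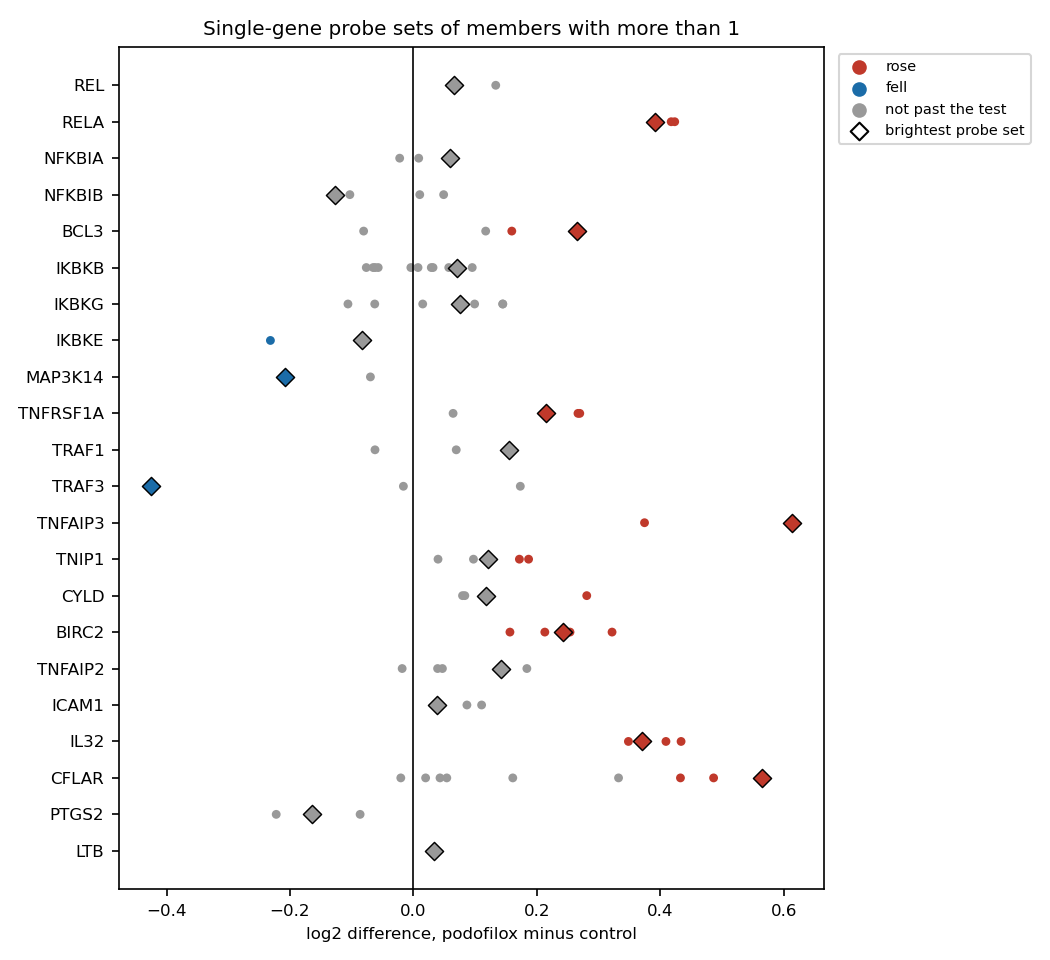
Log2 difference of every single-gene probe set of the 22 members that have more than 1, with the brightest as a diamond; colours give the call over all 49293 probe sets. The RELA, BIRC2 and IL32 probe sets all rose, CFLAR spread from -0.02 to 0.56, and TRAF3 from -0.43 to 0.17.

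Over all 107 probe sets of the members, 28 rose and 3 fell in the fit over every probe set, where 7.67% of all probe sets rose and 10.1% fell. Those that fell belonged to TRAF3, MAP3K14 and IKBKE, and several of the 28 that rose belonged to the same gene. IL1B and PTGS2, called in the limma fit over genes, did not pass in this one (adjusted p = 0.0579 and 0.0543). Of the 9 members with several probe sets and a call on the brightest one in that fit, 7 had another probe set past the test in the same direction and 0 had one past it in the opposite direction. The 2 without were MAP3K14 and TRAF3.

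Among the targets, CFLAR and IL32 rose by the largest amounts. CFLAR encodes c-FLIP, which keeps death receptors from activating caspase-8. It had 10.59, 10.67, 10.58 and 10.65 with podofilox and 10.09, 10.13, 9.99 and 10.03 in control cells. The lowest podofilox array (10.58) lay well above the highest control array (10.13), and the rise was 0.56 (SE 0.05, adjusted p = 5.21e-05). Its probe sets did not move alike: 3 of 9 rose, by 0.43 to 0.56, while 4 lay between -0.02 and 0.05. CFLAR has many transcript forms, and which form each probe set reads was not determined here.

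IL32, an inflammatory cytokine of epithelial and T cells, had 10.81, 10.86, 10.66 and 10.72 with podofilox and 10.37, 10.40, 10.40 and 10.40 in control cells. The control arrays were almost at the same value and all podofilox arrays were above them, and the rise was 0.37 (SE 0.05, adjusted p = 0.000739). All 4 probe sets rose, by 0.35 to 0.43. IL1B, which encodes interleukin-1 beta, had 6.33, 6.27, 6.41 and 6.27 with podofilox and 5.96, 6.00, 6.17 and 6.26 in control cells. Podofilox array 4 and control array 4 were nearly at the same value, and the rise of 0.22 (SE 0.07, adjusted p = 0.0491) held without control replicate 4 but was lost without each of the other 7 arrays (adjusted p up to 0.121).

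PTGS2, or COX-2, which makes prostaglandins, was the target that fell. It had 9.11, 9.16, 9.18 and 9.14 with podofilox and 9.32, 9.43, 9.27 and 9.23 in control cells, without overlap, a difference of -0.16 (SE 0.05, adjusted p = 0.0421). That call, too, held only without control replicate 4 among the 8 omissions of 1 array (adjusted p up to 0.0902), and its other probe sets lay at -0.22 and -0.09 without passing.

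The remaining 7 targets did not pass the test. TNFAIP2 differed by 0.14 (SE 0.05, adjusted p = 0.0751) and passed in 6 of the alternatives that kept all 8 arrays, among them a filter on dim genes and each array centred on its median, and also without podofilox replicate 3, at 0.17 (adjusted p = 0.0447). ICAM1, the adhesion molecule that leukocytes bind, differed by 0.04 (SE 0.04, adjusted p = 0.577), with an interval from -0.06 to 0.13. LTB, a ligand of the non-canonical branch, differed by 0.03, CD83 by 0.10 and TNFRSF9 by 0.12. TNF itself had 4.27, 4.35, 4.20 and 4.18 with podofilox and 4.34, 3.90, 4.04 and 4.14 in control cells, with control array 1 above most podofilox arrays, and IL1A differed by 0.14. IL1A, TNF and TNFRSF9 had means under 5 in both groups, and the table holds no detection calls, so little can be read of a change in these genes.

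**Figure D5:**
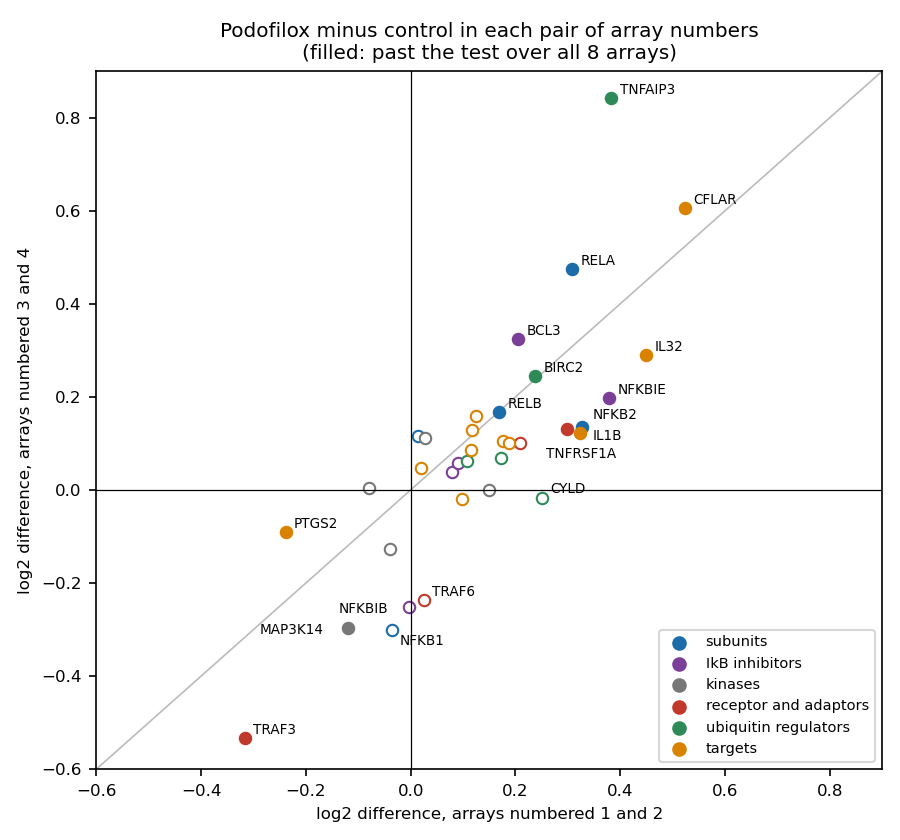
Log2 difference of each member within arrays numbered 1 and 2 (horizontal) and within arrays numbered 3 and 4 (vertical); the grey line marks equal values, and filled points passed the test over all arrays. All 14 filled points have the same sign on both axes, which the lack of overlap between the groups fixes for all of them but MAP3K14. TNFAIP3 lies far above the line (0.38 and 0.84), and NFKB1, NFKBIB and TRAF6 lie near 0 on the horizontal axis and between -0.30 and -0.24 on the vertical one.

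All 14 called members had the same direction in arrays 1 and 2 and in arrays 3 and 4. In the 13 without overlap between the groups this could not be otherwise, so it says nothing of their stability. Of the 14, 9 kept their call whichever array was left out: NFKB2, RELA, NFKBIE, BCL3, TRAF3, TNFAIP3, BIRC2, IL32 and CFLAR. The podofilox arrays differed among themselves for these genes. Podofilox array 3 held the lowest podofilox value in 21 of 35 members (60.0%), against 40.8% of all genes, and podofilox array 1 the highest in 16 (45.7%, against 32.7% of all genes). TNFAIP3 ran the other way, with its highest value on array 3 and its lowest on array 1. The part of array differences in the results was not tested further.

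Beyond the members, 38 further genes of the pathway and 34 further targets were read. Of the further pathway genes, 5 rose and 5 fell (13.2% each), against 8.55% and 12.5% of all genes, with a median difference of 0.04; the share that fell was near that of all genes. BCL10, which links antigen and G-protein receptors to the IkB kinases, rose by 0.48 (SE 0.05, adjusted p = 0.00012), the adaptor kinase RIPK2, which acts below NOD proteins, by 0.36 (SE 0.06, adjusted p = 0.00282), and the interleukin-1 receptor subunit IL1RAP by 0.34 (SE 0.06, adjusted p = 0.00341). OTULIN and TANK also rose. COMMD1, which promotes the removal of RELA from DNA, fell by 0.37 (SE 0.06, adjusted p = 0.00213), and TLR4, IRAK1, RNF31 and LTBR fell by between 0.15 and 0.28.

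Of the further targets, 16 of 34 rose and 1 fell (CXCL10, by 0.26), with a median difference of 0.15. The share that rose was 47.1%, against 8.55% of all genes and 27.3% of the target members. Like the members and the further pathway genes, these targets were listed with earlier results of these data known. The shares are therefore not independent of the data. CXCL8, the neutrophil chemokine interleukin-8, ranged from 8.94 to 9.12 on podofilox arrays and from 7.72 to 7.81 on control arrays. The groups were far apart, and CXCL8 rose by 1.23 (SE 0.05, adjusted p = 2.96e-06); its promoter held GGAATTTCC at 91 to 83 bases before the start. GADD45B, a stress gene that restrains JNK signalling, rose by 0.63 (SE 0.04, adjusted p = 1.88e-05), the laminin chain LAMB3 by 0.52 (SE 0.05, adjusted p = 0.000125), and the early response gene IER3 by 0.42 (SE 0.05, adjusted p = 0.000471). Several of these genes are also targets of other pathways.

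The epithelial identity of the cells was checked with markers. The keratins KRT8, KRT18 and KRT19 averaged 13.18, 13.18 and 13.37 with podofilox and 13.16, 13.26 and 13.28 in control cells, and none of the 3 passed the test. Among 12 immune markers the means ran from 3.49 (PTPRC) to 13.62 (LYZ, which gastric epithelium also makes) with podofilox and from 3.62 (PTPRC) to 13.60 (LYZ) in control cells. ITGAX averaged 7.71 with podofilox and 7.62 in control cells, and TYROBP 7.40 with podofilox and 7.46 in control cells; without detection calls such levels do not say whether a gene was expressed. Of 6 epithelial markers 1 rose (CLDN4, by 0.50). Of the immune markers 1 rose (CD2, by 0.31) and 0 fell, and their summed level was 77.6 to 77.9 on podofilox arrays and 76.1 to 78.0 on control arrays. No call was made among 8 fibroblast markers, and CDH5 fell among 8 endothelial ones. The part of these genes in the results was not tested.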

How the data were processed

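RNA was measured in 4 podofilox and 4 control samples of AGS cells, grouped by the labels. The authors made the deposited log2 values, 1 for each array and probe set, with RMA, per the submitters' processing notes. Its software and options: not given in the sources used here. RMA corrects background and normalizes arrays by quantiles, which removes differences common to all genes of an array. The values ran from 2.64 to 15.0, without detection calls, and precision is limited by having 8 arrays.

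Of 49395 probe sets, 102 were manufacturer controls, 44988 had 1 gene in the platform annotation, 1832 several and 2473 none. Entrez identifiers of 44961 were found in RefSeq's table for GRCh38.p14, and 0 symbols changed. The brightest single-gene probe set by mean over 8 arrays stood for each gene, which gave 18132 genes. Podofilox and control were compared across all genes in R 4.3.3 by limma 3.58.1 (lmFit, eBayes; group as sole term, unfiltered), with Benjamini-Hochberg adjustment over all genes and a threshold of 0.05; the fit was tested on simulated data. A separate fit over 49293 probe sets was adjusted over all of them. Promoter sequences came from RefSeq's table for GRCh38.p14; where a gene has several starts the first listed was used. Figures were drawn with matplotlib 3.10.9.

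The members and the further lists were chosen with earlier results of these data known. All 38 members are named, and of each further list the 4 genes with the smallest p among those past the test, with CXCL8; the other further genes and markers named were chosen after their values were seen. Alternatives were a filter on dim genes (mean under 5 in both groups), genes above the median level, quantile normalization once more, median centring, array weights, robust estimation with an intensity trend, a block for replicate number, the mean of probe sets, leaving out _x_at and _s_at probe sets, a plain t-test, each array left out, and arrays 1 and 2 or 3 and 4 alone. Leaving out arrays in the fit over probe sets was added after seeing the data.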

Additional observations from a re-analysis of the deposited data

Results flagged for a closer look

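Within each group of 4 arrays, the highest and the lowest value of every member were set against Dixon's 95% critical value for 4 arrays (the gap to the nearest array over the whole range). Of 70 groups, 6 went past it, and chance flags about 1 in 20 groups. All 6 were control groups, and 5 of them involved control array 1. On that array NFKB1 read 8.55, against 8.67 to 8.68 on the other control arrays, NFKBIA 10.22 against 10.29 to 10.30, ICAM1 8.71 against 8.80 to 8.81, and IL32 10.37 against 10.40 each, while TNIP2 was high at 8.64 against 8.60 each. RELA read 7.95 on control array 3, below all other control arrays. Without control replicate 1 the difference of IL32 was 0.36 (adjusted p = 0.00352), that of NFKB1 -0.20 (adjusted p = 0.0734), that of NFKBIA 0.04 (adjusted p = 0.581), that of ICAM1 0.02 (adjusted p = 0.848) and that of TNIP2 0.10 (adjusted p = 0.211); without control replicate 3 that of RELA was 0.33 (adjusted p = 0.00543). The cause of these single values was not tested.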

How the results depend on the processing

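Over 687 member values under the alternatives, 605 kept their side of the threshold, 61 lost a call, 21 gained one, and 0 called values changed sign; 7 uncalled values did. Of the 61 losses, 26 came from leaving out 1 array and 16 from the smaller sets of arrays 1 and 2 or 3 and 4. Of the 2 pathway falls, TRAF3 alone passed with the replicate block or the t-test, and 0 passed in arrays 1 and 2. With the mean of probe sets neither passed, and the 1 pathway fall was IKBKE (-0.16, adjusted p = 0.0459). The 1 target fall became 0 with the replicate block, array weights, centring, quantile normalization, the mean of probe sets, the t-test, and either pair of arrays. Feedback members showed 1 fall with array weights, an intensity trend, genes above the median, or arrays 3 and 4. With 1 array left out, pathway falls ranged from 1 to 3, target falls from 0 to 1, feedback falls from 0 to 1 and falls of member probe sets from 1 to 4.

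With arrays 1 and 2 alone, 2 pathway members, 2 feedback members, 3 further pathway genes and 6 further targets rose, 0 further pathway genes and 0 further targets fell, and of all genes 468 rose and 542 fell. With arrays 3 and 4 alone, 4 pathway members, 2 feedback members and 9 further targets rose, 0 further targets fell, and of all genes 905 rose and 1395 fell. Array weights gave 8 rises of further pathway genes and 2406 of all genes, and genes above the median gave 0 falls of further targets. The replicate numbers were checked as a pairing: same-numbered podofilox and control arrays had correlations of their deviations of -0.13, 0.09, -0.24 and 0.06. Podofilox array 1 and control array 3, of unlike number, had 0.24. So few arrays cannot tell whether same-numbered ones were handled together, and the labels do not say. With the replicate block, 6 pathway members and 2 targets rose, RELB (adjusted p = 0.0514), MAP3K14, TNFRSF1A, IL1B and PTGS2 losing their calls. The cause of these changes was not tested, beyond the fewer arrays where arrays were left out.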
